A study of Drosophila melanogaster with 2 samples.

Results

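The 7 basic helix-loop-helix (bHLH) genes of the Enhancer of split complex of Drosophila melanogaster were followed through a map of the heterochromatin protein Su(var)2-HP2. They were chosen by name, as E(spl)mdelta-HLH, E(spl)mgamma-HLH, E(spl)mbeta-HLH, E(spl)m3-HLH, E(spl)m5-HLH, E(spl)m7-HLH and E(spl)m8-HLH, and are 7 of 13968 annotated protein-coding genes. Every peak summit inside one of these genes or within 2 kb of its ends was taken. Chromatin immunoprecipitation and sequencing (ChIP-seq) with an antibody against GFP had been done on whole embryos aged 0 to 10 h from a fly line with a stably expressed transgene for Su(var)2-HP2 fused C-terminally to GFP. There is 1 group of 2 biological replicates, numbered 4 and 6, both of the same transgenic line, and no group without the fusion protein. The embryos are a mixture of all cell types and of all stages within those hours, so a summit cannot be assigned to cells in which a gene is on or off. With 2 replicates and no second condition, all values are descriptions, given with the mean and SD of the replicates where both have one, and no test was made.

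The Enhancer of split bHLH proteins are repressors related to Hairy. When a Notch receptor is activated, its cleaved intracellular domain joins the DNA-binding protein Su(H) and switches these genes on, and their products, together with the co-repressor Groucho (encoded by gro, a neighbour in the complex), repress proneural genes, so that the cell does not become a neural precursor. Without Notch activity Su(H) carries co-repressors to the same sites. Su(var)2-HP2 is best known as a partner of HP1 in silent pericentromeric chromatin, and the Enhancer of split genes are regulated genes far out on a chromosome arm.

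All 7 genes lie on 3R, between positions 25997621 and 26041008 of the dm6 build, and the whole complex of 13 genes ends with gro at 26049911. It covers 52.3 kb and begins 21.8 Mb beyond the border set here for the pericentromeric part of 3R, at 4.2 Mb. E(spl)mdelta-HLH (FBgn0002734), at 25997621 to 25998633, E(spl)mgamma-HLH (FBgn0002735), at 25999851 to 26000761, E(spl)m3-HLH (FBgn0002609), at 26021823 to 26023127, E(spl)m7-HLH (FBgn0002633), at 26037038 to 26038019, and E(spl)m8-HLH (FBgn0000591), at 26040240 to 26041008, are on the plus strand. E(spl)mbeta-HLH (FBgn0002733), at 26005046 to 26006023, and E(spl)m5-HLH (FBgn0002631), at 26028854 to 26029735, are on the minus strand. Each has 1 annotated transcript with a single exon, a form shared by 15.3% of all protein-coding genes and by 28.6% of the arm genes up to 2 kb long. Gene lengths run from 769 bp at E(spl)m8-HLH to 1305 bp at E(spl)m3-HLH.

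Strong summits lay at 4 of the 7 genes. The list filtered by irreproducible discovery rate (IDR), a measure of how well replicates rank the same peaks, had a summit in or within 2 kb of E(spl)mdelta-HLH, E(spl)m3-HLH, E(spl)m7-HLH and E(spl)m8-HLH, and 5 summits in all. Of all protein-coding genes 15.4% had one within the same distance, and of the arm genes up to 2 kb long, which are closer to the members in size, 9.35%. None of the 5 summits lay inside a member. At E(spl)mdelta-HLH, E(spl)m3-HLH and E(spl)m7-HLH they were upstream of the start site, and at E(spl)m8-HLH the summit was downstream of the gene, in an intron of its neighbour gro.

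The sequences under these 5 summits are shown because they mark where the strong signal lies at the complex and can be compared in composition with the promoters beside them. Each is the plus strand of 3R in the RefSeq assembly (Release 6, the dm6 coordinates), 100 bases to each side of the pooled summit, with the 21 bases around the summit in capitals. The window 332 bp upstream of E(spl)m7-HLH is chr3R:26036606-26036806, those 335 and 1013 bp upstream of E(spl)mdelta-HLH are chr3R:25997186-25997386 and chr3R:25996508-25996708, the one 452 bp upstream of E(spl)m3-HLH is chr3R:26021271-26021471, and the one in the gro intron is chr3R:26042398-26042598. None holds an annotated UTR, and the window 1013 bp upstream of E(spl)mdelta-HLH includes 24 coding bases of the neighbouring gene CG43116.
E(spl)m7-HLH, 332 bp upstream: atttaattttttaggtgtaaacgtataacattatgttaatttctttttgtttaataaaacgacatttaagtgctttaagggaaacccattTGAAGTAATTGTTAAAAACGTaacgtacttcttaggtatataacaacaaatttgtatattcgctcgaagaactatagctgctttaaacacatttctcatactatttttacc
E(spl)mdelta-HLH, 335 bp upstream: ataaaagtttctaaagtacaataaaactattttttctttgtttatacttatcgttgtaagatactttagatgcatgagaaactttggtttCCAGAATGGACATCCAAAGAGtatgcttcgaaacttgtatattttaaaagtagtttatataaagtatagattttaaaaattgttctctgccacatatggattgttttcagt
E(spl)mdelta-HLH, 1013 bp upstream: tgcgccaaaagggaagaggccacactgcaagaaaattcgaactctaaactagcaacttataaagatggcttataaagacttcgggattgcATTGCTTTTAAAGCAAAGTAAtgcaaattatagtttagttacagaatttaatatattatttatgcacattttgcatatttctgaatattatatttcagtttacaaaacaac
E(spl)m3-HLH, 452 bp upstream: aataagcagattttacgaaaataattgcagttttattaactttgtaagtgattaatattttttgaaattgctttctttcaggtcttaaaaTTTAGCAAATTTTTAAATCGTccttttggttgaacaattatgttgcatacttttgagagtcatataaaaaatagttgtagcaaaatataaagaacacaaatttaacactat
E(spl)m8-HLH, 1490 bp past the gene end: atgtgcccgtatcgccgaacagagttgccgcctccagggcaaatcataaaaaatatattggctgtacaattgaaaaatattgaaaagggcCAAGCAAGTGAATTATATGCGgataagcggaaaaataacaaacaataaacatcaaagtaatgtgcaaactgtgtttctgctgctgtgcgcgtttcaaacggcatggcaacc

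All 4 windows upstream of members were richer in A and T than most arm IDR windows, the E(spl)mdelta-HLH window at 1013 bp least so. A and T made up 73.6% of the E(spl)m7-HLH window, 73.6% and 69.7% of the E(spl)mdelta-HLH windows at 335 and 1013 bp, and 76.6% of the E(spl)m3-HLH window, against a median of 66.7% over the 1475 IDR summits on the chromosome arms. Of those arm windows 87.5% were lower than the E(spl)m7-HLH window, 87.5% and 67.1% lower than the E(spl)mdelta-HLH windows, and 95.5% lower than the E(spl)m3-HLH window. The window in the gro intron held 58.7%, and 11.9% of the arm windows were lower. The members' own promoters, from 250 bases before to 50 after the start site, held 41.0% (E(spl)m3-HLH) to 50.7% (E(spl)m8-HLH), all below the median of 62.0% over 13672 arm genes. Each upstream window was thus richer in A and T than the promoter of its member.

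E(spl)m7-HLH, a bHLH repressor gene near the right end of the complex, had the strongest summit of the members in the pooled list and in replicate 4, while in replicate 6 a summit of E(spl)mdelta-HLH had a slightly higher value. It lay at position 26036706, between genes, 332 bp upstream of the start site, in a called interval of 416 bp. The signal value, a score from peak calling whose scale the sources used here do not state, was 511.1 in the pooled list, 303.3 in replicate 4 and 209.1 in replicate 6. For comparison between lists each signal value was therefore expressed relative to the median of that list's top peaks, as many as the IDR list holds. This relative signal was 2.40 in replicate 4 and 2.32 in replicate 6, a mean of 2.36 ± 0.0535 (SD, n = 2). The replicates were close, and the summit ranked 329 in the pooled list, 322 in replicate 4 and 363 in replicate 6. It is the only one of the 5 IDR summits whose nearest annotated start site is that of a member.

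E(spl)mdelta-HLH, the first gene of the complex, had a pair of strong summits. The nearer one, at position 25997286 and 335 bp upstream, had a pooled signal value of 486.4, with 274.3 in replicate 4 and 207.2 in replicate 6. Its relative signal was 2.17 and 2.30, a mean of 2.23 ± 0.0937 (SD, n = 2). The farther one, at 25996608 and 1013 bp upstream, had a pooled signal value of 414.3, with 193.6 in replicate 4 and 213.3 in replicate 6. On the relative scale the farther summit differed more between replicates, 1.53 in replicate 4 and 2.37 in replicate 6, a mean of 1.95 ± 0.593 (SD, n = 2). Replicate 4 thus had the nearer summit as the higher of the pair and replicate 6 the farther one, so their order was not settled. CG43116, a gene that runs away from E(spl)mdelta-HLH on the other strand, starts 290 bp from the nearer summit and 388 bp from the farther one, which is in its intron. In the pooled list both summits are therefore closer to that start site than to the member's.

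E(spl)m3-HLH, the longest of the 7 genes, had its IDR summit at position 26021371, 452 bp upstream of its start site. Its signal value was 360.2 in the pooled list, 194.2 in replicate 4 and 163.8 in replicate 6. The relative signal was 1.53 in replicate 4 and 1.82 in replicate 6, a mean of 1.68 ± 0.200 (SD, n = 2). A noncoding gene, lncRNA:CR43644, starts 295 bp away and is closer than the member. The called interval of 432 bp held another summit at 26021572, 251 bp upstream of the member, with a pooled signal value of 107.4 and 50.92 in replicate 4, and no summit of replicate 6 lay within 100 bp of it. Another upstream summit at 26020421, 1402 bp away, had a pooled signal value of 100.1. Its relative signal was 0.277 in replicate 4 and 0.627 in replicate 6, where it ranked 1885.

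At E(spl)m8-HLH the IDR summit came from the neighbouring region. It lay at position 26042498, 1490 bp past the end of E(spl)m8-HLH and 143 bp from a start site of gro, the Groucho co-repressor gene. Its signal value was 217.3 in the pooled list, 122.5 in replicate 4 and 102.4 in replicate 6. The relative signal was 0.968 and 1.14, a mean of 1.05 ± 0.119 (SD, n = 2), lower in both replicates than each of the 4 upstream summits at E(spl)mdelta-HLH, E(spl)m3-HLH and E(spl)m7-HLH. A weaker summit at 26041684, 52 bp from a start site of gro, had a pooled signal value of 95.47 and a relative signal of 0.530 in replicate 4 and 0.337 in replicate 6. At the start site of E(spl)m8-HLH itself, the summit 20 bp upstream at 26040220 had a pooled signal value of 35.97 and rank 12925. It had a match in replicate 6, with a relative signal of 0.202, and none in replicate 4.

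E(spl)mgamma-HLH, E(spl)mbeta-HLH and E(spl)m5-HLH had weak summits in their surroundings. The strongest at E(spl)mgamma-HLH, 48 bp past the gene's end at 26000809, had a signal value of 39.41 in the pooled list, 30.19 in replicate 4 and 13.55 in replicate 6, and a relative signal of 0.194 ± 0.0623 (SD, n = 2). At E(spl)mbeta-HLH the strongest, 139 bp upstream at 26006162, had 39.96 in the pooled list and 40.24 in replicate 4, and replicate 6 listed no summit in the gene or within 2 kb of it. The strongest at E(spl)m5-HLH, 1660 bp upstream at 26031395, had 40.64 in the pooled list and 21.96 in replicate 4, with no match in replicate 6. The strongest of each replicate at E(spl)m5-HLH lay elsewhere, with 28.72 in replicate 4, downstream of the gene, and 11.61 in replicate 6, upstream of it. The 3 pooled values are close to each other and not far above the median over all 30000 pooled peaks, 32.36.

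The 7 genes fell into 4 with a strongest pooled signal value of 217.3 to 511.1 and 3 with 39.41 to 40.64. With the 2 kb distance, no value lay in the 5.35-fold gap between them. This gap depends on that distance, as the 217.3 of E(spl)m8-HLH is the summit in the gro intron, 1490 bp past the gene's end. Within 1 kb of E(spl)m8-HLH the strongest pooled summit had 95.47, inside the gap, and the one at its start site had 35.97. Among the 13672 protein-coding genes of the arms, 93.3% to 98.2% had a lower strongest signal than each of the first 4, and 62.0% to 62.8% a lower one than each of the other 3. In replicate 4 the first 4 genes stood above 92.8% to 98.4% of arm genes and in replicate 6 above 93.7% to 98.1%. The other 3 were less close to each other there, above 60.2% to 70.1% in replicate 4, and in replicate 6 above 57.0% at E(spl)mgamma-HLH and 53.2% at E(spl)m5-HLH, with no summit listed at E(spl)mbeta-HLH. When each replicate list was limited to its top peaks, as many as the IDR list holds, the same 4 members and no other kept a summit in each, against 14.9% of all protein-coding genes in each. For the signal values, the lowest IDR peak has 120.9 and the next pooled peak 120.9 as well. The members' values nearest to that border are 217.3 above it and 107.4 below it.

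**Figure D1:**
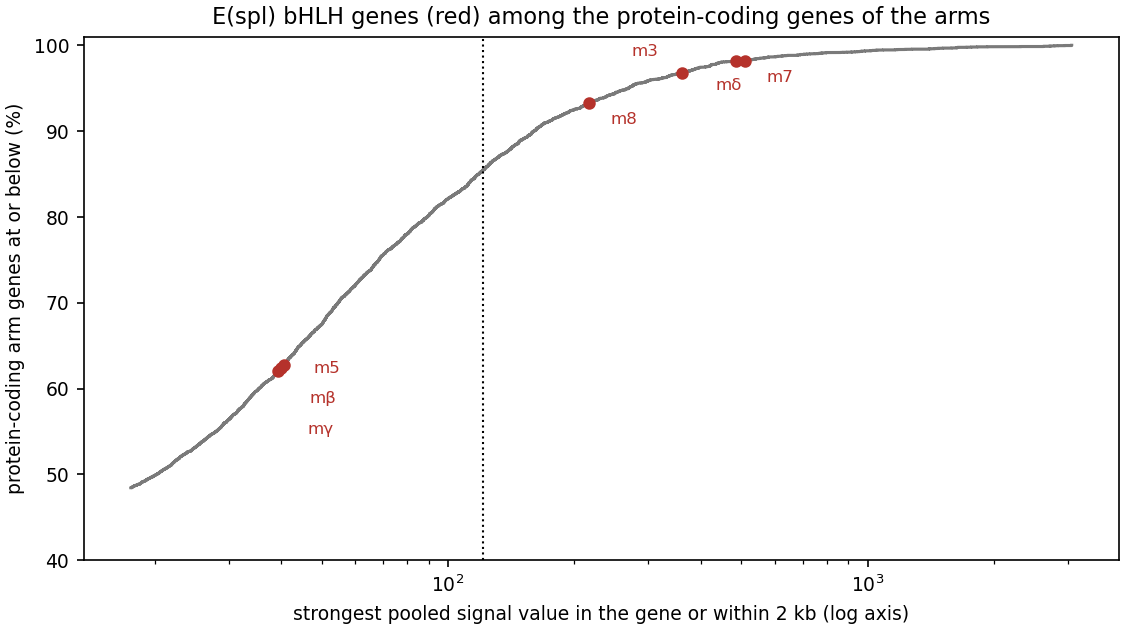
The grey curve gives the percentage of protein-coding arm genes (y axis) whose strongest pooled signal value in the gene or within 2 kb is at or below the value on the x axis (log scale, arbitrary score), the red points are the 7 E(spl) bHLH genes, and the dotted line is the lowest IDR signal value, 120.9. E(spl)mγ-HLH, E(spl)mβ-HLH and E(spl)m5-HLH sit together near 40 and the other 4 genes between 217.3 and 511.1. The lowest of these 4, E(spl)m8-HLH at 217.3, has the value of the summit in the gro intron.

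The full lists give each member at least 1 pooled summit, 22 in all, of which 1 is shared by E(spl)mdelta-HLH and E(spl)mgamma-HLH. Of all protein-coding genes 52.3% had a pooled summit in the gene or within 2 kb. In the list of replicate 4 all 7 members had one, against 56.5% of genes, and in that of replicate 6 it was 6, against 56.2%. The pooled signal values ran from 17.6 to 511.1 with a median of 40.22, 11 summits lay upstream of a start site, 9 past a gene's end and 2 inside a gene. The 2 inside were both in coding sequence, at E(spl)mgamma-HLH with 27.36 and at E(spl)m5-HLH with 31.97. A q-value under 0.05 was listed for 13 of the 22 and for 41.3% of all pooled peaks.

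Matches between the replicate lists were counted for each pooled summit. All 5 IDR summits had a summit within 100 bp in both replicate lists, as had 94.7% of arm IDR summits. The IDR list equals the strongest peaks of the pooled list, which was made from both replicates, so nothing is read from that count. Being in the IDR list thus reflects pooled signal and not agreement at the single peak. The IDR summit at 26011719, near E(spl)malpha-BFM, ranked 1058 in replicate 4 and 6792 in replicate 6. Over all 22 pooled summits, 8 were matched in both replicates, 10 in 1 of them and 4 in neither. The 3 matched summits outside the IDR list were the one of E(spl)mgamma-HLH, that of E(spl)m3-HLH at 1402 bp and that next to gro. The ratio of relative signal in replicate 6 to that in replicate 4 ran from 0.968 to 1.55 over the 5 IDR summits, with a median of 1.17. Over the 1397 arm IDR summits matched in both, the median was 1.00, with quartiles of 0.778 and 1.26.

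**Figure D2:**
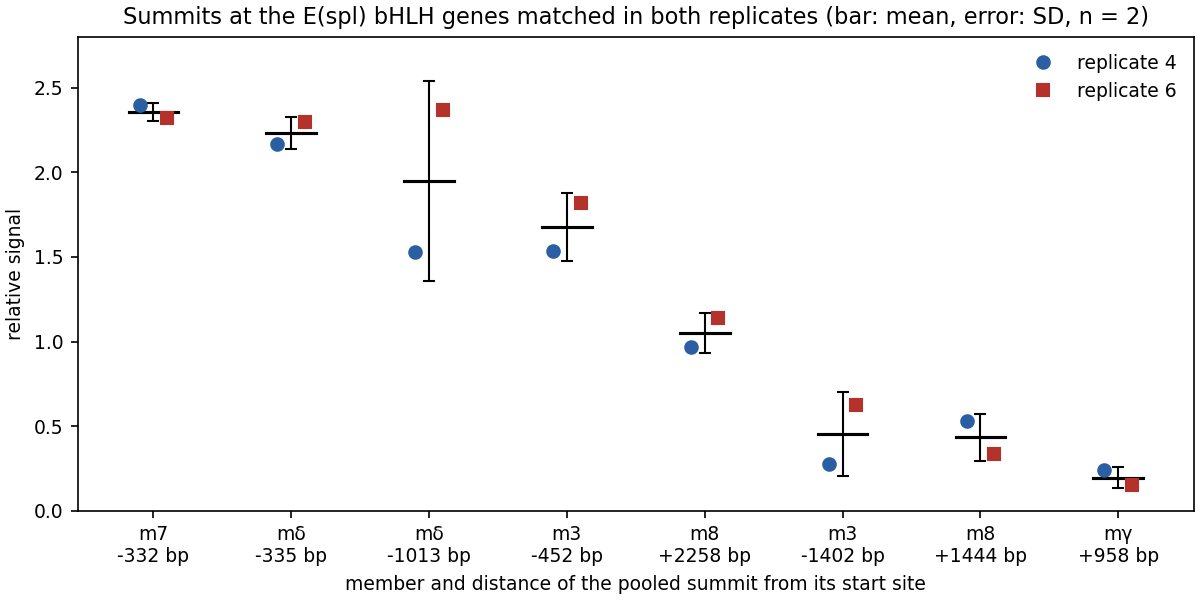
Relative signal (y axis, signal value over the median of the top peaks of its list) of the 8 pooled summits at E(spl) bHLH genes with a match in both replicates, in replicate 4 (blue circles) and replicate 6 (red squares), with the mean (bar) and SD (error bar, n = 2). The first 5 are the IDR summits, from 2.36 at E(spl)m7-HLH down to 1.05 near E(spl)m8-HLH, and the other 3 have means below 0.5.

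Across the complex the IDR summits at no member lay together between E(spl)mbeta-HLH and E(spl)m3-HLH, with IDR summits of members on both sides. The strongest summit at no member, at 26017979, lay 509 bp upstream of E(spl)m2-BFM, a Bearded family gene, and within 2 kb of Kaz-m1, which encodes a protein with a Kazal-type domain. Its pooled signal value was 416.7 and its relative signal 1.56 in replicate 4 and 2.52 in replicate 6, a mean of 2.04 ± 0.675 (SD, n = 2). Of the 6 other genes of the complex, 4 had an IDR summit within 2 kb, but gro shares its summit with E(spl)m8-HLH and Kaz-m1 shares one with E(spl)m2-BFM. The fourth, E(spl)malpha-BFM, also a Bearded family gene, had its strongest at 26009089, 1804 bp upstream, with a pooled signal value of 191.8. The Bearded family genes E(spl)m4-BFM and E(spl)m6-BFM had no IDR summit, with strongest pooled values of 55.24 and 40.64. The latter is the same summit as the strongest at E(spl)m5-HLH, and it lies 1516 bp from the start site of E(spl)m6-BFM.

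**Figure D3:**
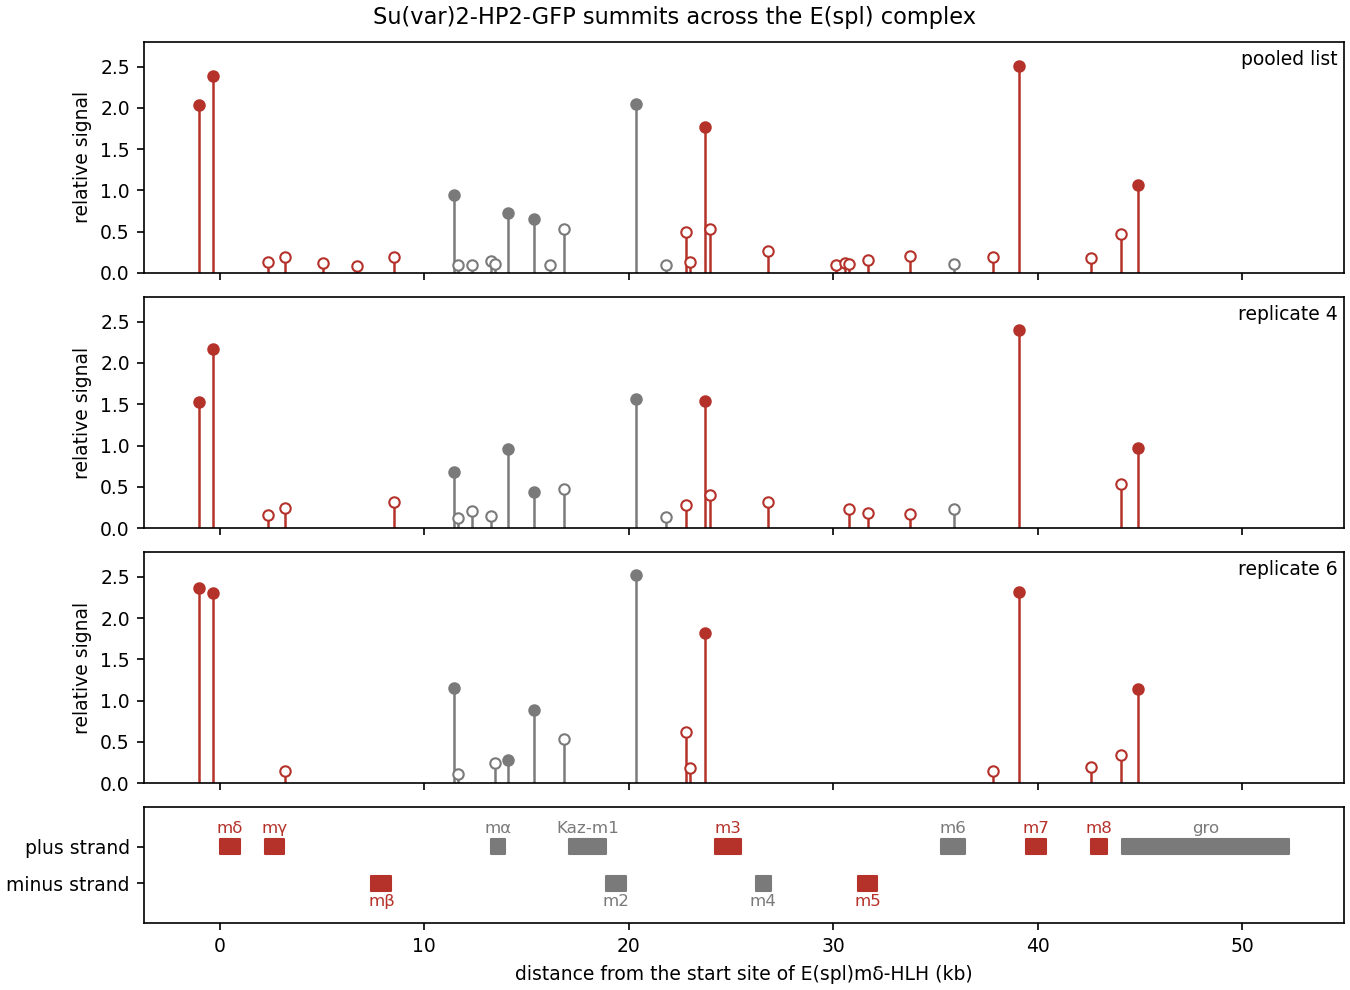
Summits in the pooled list, replicate 4 and replicate 6 (upper 3 panels, y axis relative signal) along the Enhancer of split complex (x axis, kb from the start site of E(spl)mδ-HLH), in red where a summit lies in or within 2 kb of a bHLH gene and grey otherwise, with filled circles for summits of the IDR list. The replicate panels show only replicate summits within 100 bp of a pooled summit, drawn at the pooled position. Gene boxes are by strand, bHLH genes in red; the tall red summits stand upstream of mδ, m3 and m7, and at mγ, mβ and m5 relative signal stays below 0.5 in each list.

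From its first to its last gene the complex held 32 pooled summits, 6.12 per 10 kb. The arms divided into 2192 tiles of the same width held 1.6 per 10 kb on average, and 95.9% of tiles held fewer than the complex. It held 7 IDR summits, 1.34 per 10 kb against 0.129 in the tiles, and 99.5% of tiles held fewer while 11 held at least as many. The pair of summits upstream of E(spl)mdelta-HLH lies just outside this span and is not in these counts. The 2 replicate lists gave 33 and 25 summits, more than 96.2% and 95.4% of tiles.

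The sites for Su(H) were looked for in the 1500 bases upstream of each member, since these carry Notch input at the complex. A Su(H) site was taken as TGTGGGAA or CGTGGGAA and a relaxed one as TGTGAGAA or CGTGAGAA, on both strands. All 7 members had at least 1 strict site there, against 8.48% of 13672 arm genes. Of the 7, 6 had a pair of sites on opposite strands whose starts are at most 30 bases apart, strict or relaxed, and 14 arm genes in all, 0.102%, had such a pair. E(spl)mbeta-HLH, with a single strict site at -292 bp from its start site, had none. The other 8 arm genes with a pair were E(spl)m4-BFM and 7 genes outside the complex. The members' pairs are shown because their arrangement recurs from gene to gene, in the 5' to 3' direction of each gene (plus strand of 3R, minus strand for E(spl)m5-HLH), with both sites in capitals and 10 bases to each side, at chr3R:25996272-25996322, chr3R:25999547-25999599, chr3R:26020741-26020793, chr3R:26030587-26030644, chr3R:26036359-26036411 and chr3R:26040006-26040058 in the order of the lines.
E(spl)mdelta-HLH: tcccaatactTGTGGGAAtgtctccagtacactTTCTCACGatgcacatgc
E(spl)mgamma-HLH: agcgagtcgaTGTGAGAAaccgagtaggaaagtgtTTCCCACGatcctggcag
E(spl)m3-HLH: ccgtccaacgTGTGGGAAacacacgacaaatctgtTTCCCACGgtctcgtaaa
E(spl)m5-HLH: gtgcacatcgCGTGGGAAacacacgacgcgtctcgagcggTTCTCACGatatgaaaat
E(spl)m7-HLH: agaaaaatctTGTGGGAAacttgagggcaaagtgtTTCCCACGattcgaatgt
E(spl)m8-HLH: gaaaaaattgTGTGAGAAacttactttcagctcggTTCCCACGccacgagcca

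In each pair the first site is on the strand of the gene and the second on the other strand, and 4 of the 6 have starts 25 bases apart, at E(spl)mgamma-HLH, E(spl)m3-HLH, E(spl)m7-HLH and E(spl)m8-HLH. Both sites are strict at E(spl)m3-HLH and E(spl)m7-HLH, and 1 of the pair is relaxed at the other 4 genes. The sites of the pair begin at -669 and -644 bp from the start site of E(spl)m7-HLH, and at -224 and -199 bp from that of E(spl)m8-HLH.

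The positions of the Su(H) sites were compared with those of the summits. Of the 21 strict and relaxed sites upstream of members, 0 were within 100 bp of an IDR summit, and the nearest was 300 bp away, at E(spl)mdelta-HLH. Within 100 bp of a pooled summit lay 1 site, a relaxed one at E(spl)m3-HLH, 75 bp away. The share for sites at other arm genes was not computed, so nothing is read from either count. At E(spl)mgamma-HLH, E(spl)mbeta-HLH and E(spl)m5-HLH the first count was fixed beforehand, as no IDR summit lies within 2 kb of them. The one near E(spl)m8-HLH is past the gene's end, away from its upstream sites. The E(spl)m7-HLH pair was 321 bp from the summit of that gene and the E(spl)mdelta-HLH pair 311 bp from the farther of its summits, on the far side from the start site in both. At E(spl)m3-HLH the distance was 604 bp. All 4 members with an IDR summit within 2 kb have a pair. E(spl)mgamma-HLH and E(spl)m5-HLH also have a pair but no such summit, and E(spl)mbeta-HLH has neither. Whether pair and strong summit go together was not tested. None of the 5 summit windows printed above held a strict or relaxed Su(H) site. Over the arm IDR windows 1.02% held a strict one and 0.949% a relaxed one. The count of 0 of 5 is near that general share, so no separation of sites from summits is read from it.

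**Figure D4:**
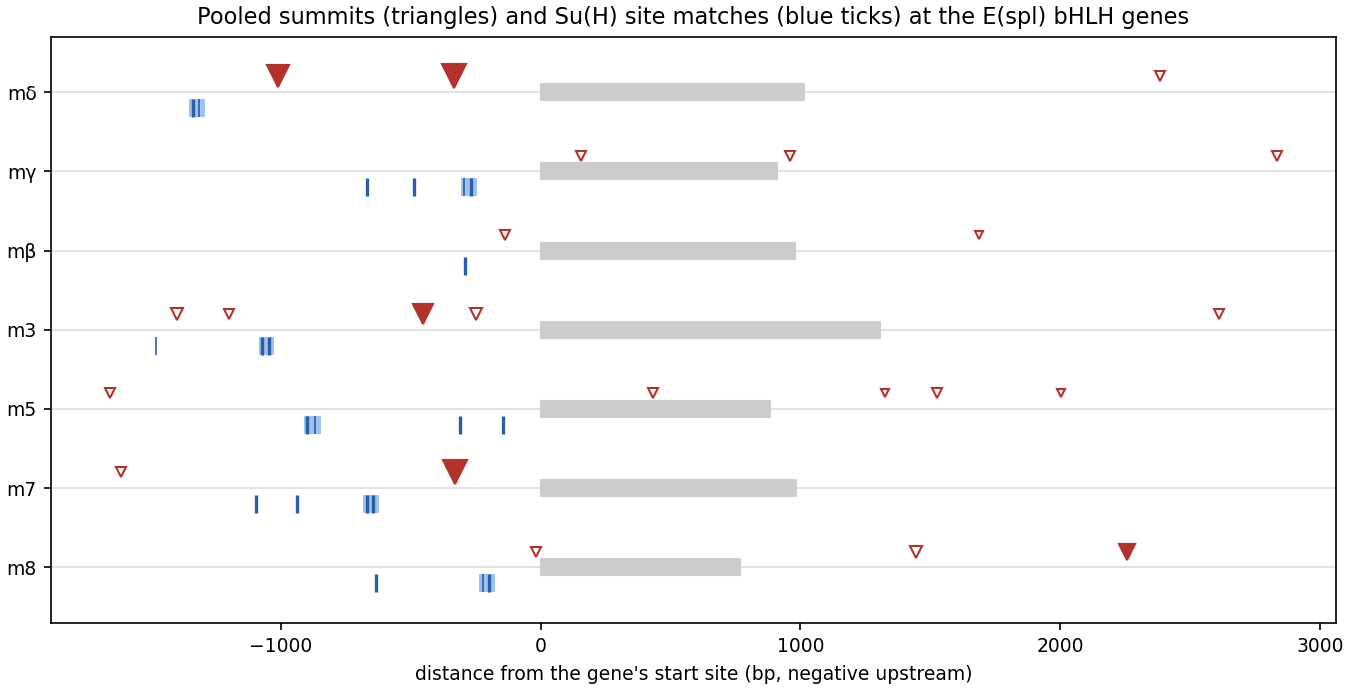
For each E(spl) bHLH gene, pooled summits (triangles, filled for the IDR list and larger for higher relative signal) and Su(H) sites of the upstream 1500 bases (blue ticks, thick for strict and thin for relaxed, with pairs shaded) by distance from the start site (x axis, bp, negative upstream), with the gene as a grey box. Filled triangles stand 332 to 1013 bp upstream of mδ, m3 and m7 and 2258 bp downstream of the start of m8.

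Other short motifs were also counted. A proneural E box (GCAGCTG or GCAGGTG, bound by proneural bHLH proteins with their partner Daughterless) was found in 0 of the 5 summit windows, in 2 of the 7 promoters and upstream of 6 of the 7 genes, against 3.25%, 8.84% and 44.8% of the arm windows, promoters and upstream stretches of the same length. An N box (CACNAG, bound by the Enhancer of split proteins themselves) was found in 0 of 5 windows, 4 of 7 promoters and 6 of 7 upstream stretches, against 17.6%, 29.6% and 85.9%. GAGAG, the core bound by GAGA factor, was found in 1 window, that of E(spl)m3-HLH, in 5 promoters and 6 upstream stretches, against 18.9%, 29.8% and 79.9%. CAGGTA, a form of the site bound by the early embryonic activator Zelda, was in 0 windows, and in the promoter and upstream stretch of E(spl)m5-HLH only, against 4.75%, 6.28% and 32.0%. All were searched on both strands, no motif contains another in full although matches may overlap, and a match is only a match of letters.

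The distance of the members' summits from start sites was compared with other arm IDR summits. Over those 1475, the median distance to the nearest start site of any gene was 300 bp, and 47.1% lay within 250 bp, 10.7% from 251 to 500 bp and 42.2% farther away. For the 5 at members the median was 295 bp, with 1 of them within 250 bp and 4 from 251 to 500 bp. The IDR summits just outside the 2 kb limit were 2565 bp from E(spl)mgamma-HLH, where it is the nearer summit of E(spl)mdelta-HLH, 3066 bp from E(spl)mbeta-HLH and 6971 bp from E(spl)m5-HLH.

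Related repressor genes outside the complex had weaker summits than the 4 members with an IDR summit. Of 5 genes of the same bHLH repressor family or class, hry (hairy), dpn (deadpan), cwo, Sidpn and Hey, 0 had an IDR summit within 2 kb, against 15.4% of all genes. Their strongest pooled signal values were 53.48, 50.43, 49.14, 30.46 and 22.51, in that order. Each value is lower than those of the 4 members with an IDR summit, and those of hry, dpn and cwo are higher than those of the other 3 members. The Bearded family genes outside the complex, Brd, Tom, Ocho and BobA, which encode inhibitors of Neuralized, also had 0 IDR summits in 4 genes, against the same 15.4%. With lists of only 5 and 4 genes, 0 is not far from that share, so no lack of summits is read from either count. Brd and Tom share a summit of 94.57, and Ocho and BobA had 49.41 and 38.56.

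Of 23 genes of the Notch pathway, 6 had an IDR summit within 2 kb, 26.1%, against 15.4% of all genes and 4 of 7 members. These were numb, an inhibitor of Notch signalling, with a pooled signal value of 397.1, the receptor gene N with 321.4, bib (big brain), a neurogenic gene of the aquaporin family, with 308.8, nej, the CBP co-activator gene, with 214.5, neur (Neuralized, the ligand-directed ubiquitin ligase) with 186.8 and aph-1, of the gamma-secretase complex, with 177.4. The summit at N lay inside the gene, 27707 bp from its start. The search covered the whole gene, so a long gene had more room for a summit. N, numb, nej, neur and bib span 37352, 26716, 21625, 19124 and 10894 bp, and aph-1 spans 1049 bp. The median length of arm genes is 2144 bp, and a share for genes of like length was not computed for this list. The numb value had a relative signal of 1.58 in replicate 4 and 2.15 in replicate 6, below both values at E(spl)m7-HLH. No pooled summit within 2 kb was listed for the ligand gene Ser, the Su(H) co-repressor gene H, Nct or Su(dx). At H, replicate 6 alone listed a summit, 332 bp upstream of the start site, with a signal value of 42.21 and a relative signal of 0.468. The ligand gene Dl is not among the 23, because its symbol was not matched to a gene of the annotation.

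Of 11 proneural genes and genes that act with, against or after them, 2 had an IDR summit. One was da (Daughterless), the common partner of the proneural proteins, with a pooled signal value of 2623 and a relative signal of 12.0 in replicate 4 and 12.6 in replicate 6, a mean of 12.3 ± 0.410 (SD, n = 2), above every member. This summit lay 1656 bp upstream of da. The other was phyl, a target of the proneural proteins, with 155.3. The emc, ase, ato and ac genes had 59.39, 47.66, 41.22 and 34.52, and sc, cato and sens had no pooled summit within 2 kb. The median of the strongest pooled values was 217.3 over the 7 members, 204.5 over the 6 other genes of the complex, 83.57 over the Notch pathway genes and 34.52 over the proneural list, and 20.21 over the arm genes, with genes without a summit counted as 0. The members' median is the summit in the gro intron, which counts for both E(spl)m8-HLH and gro. Within 1 kb, a distance added after the data were examined, the median was 95.47 over the members, 128 over the other genes of the complex and 0 over the arm genes.

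**Figure D5:**
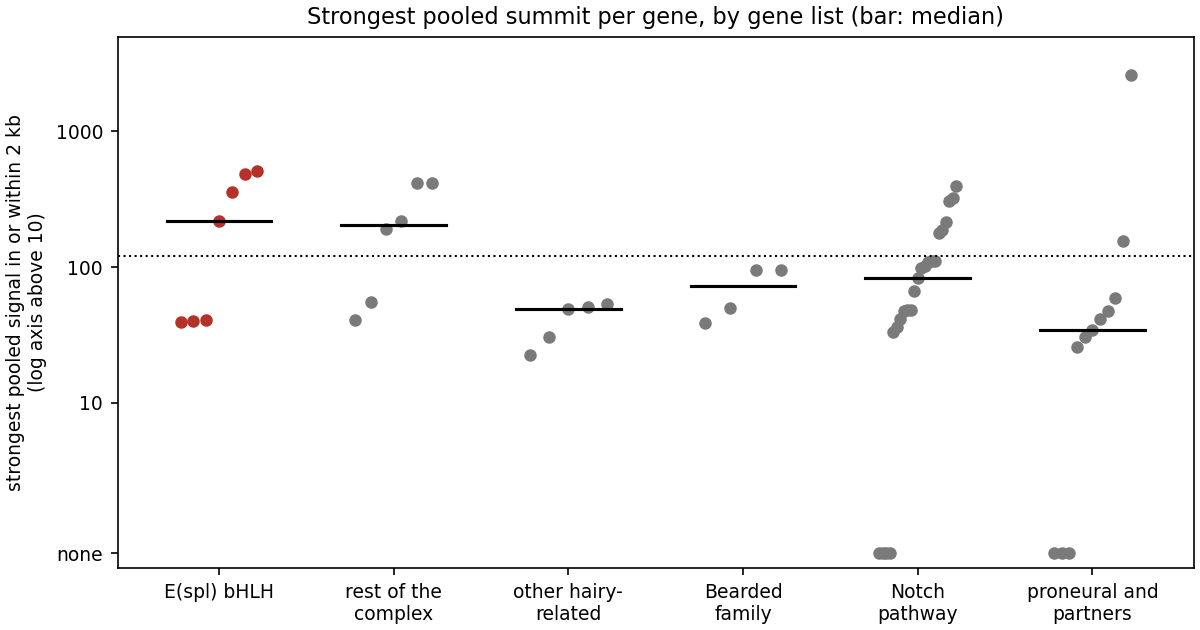
Strongest pooled signal value in the gene or within 2 kb (y axis, log scale above 10, genes without a summit at "none") for each gene of 6 lists (x axis), with the median as a bar and the lowest IDR signal value, 120.9, as a dotted line. Of the E(spl) bHLH genes (red) 4 of 7 lie above the line, and of the other Hairy-related genes and the Bearded family genes outside the complex none.

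Over 6223 arm genes with a summit in all 3 lists, the strongest summits most like that of E(spl)m7-HLH in relative signal belonged to CG9775, MED31 and slx1, which share 1 summit, and to RpL32 and Sry-alpha, which share another. The distance, in log2 relative signal over the pooled list and both replicates, was 0.138 for the first 3 genes and 0.150 for the other 2. Their relative signals were 2.62 and 2.56 in the pooled list, 2.61 and 2.59 in replicate 4, and 2.37 and 2.17 in replicate 6, against 2.51, 2.40 and 2.32 at E(spl)m7-HLH. All 5 genes are on 3R, and the first 3, at 4638010 to 4644636, are close to the pericentromeric border.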

How the data were processed

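Peak lists of Su(var)2-HP2-GFP ChIP-seq were analysed, 1 per replicate (30000 peaks each), 1 pooled (30000) and 1 IDR list (2006, equal to the 2006 strongest pooled peaks). By its description, the pooled list was derived from the alignments of both replicates and a common control alignment. Per the labels, chromatin was sonicated to 200 to 800 bp and positions are in dm6. Which aligner and which peak caller were run is not given in the sources used here. Each deposited signal value is a score of unstated scale, and each deposited peak also has a −log10 q-value and a summit offset. Depth is unknown because the lists hold no read numbers.

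Summits were placed on the Ensembl release 115 annotation, and sequence came from the RefSeq assembly. Relative signal is the signal value divided by the median of the list's 2006 strongest peaks (203.7 pooled, 126.6 replicate 4, 90.13 replicate 6). Summits of 2 lists within 100 bp were matched. Of the pooled peaks 90.8% have the same called width, 430 bp. Python 3.11.15, pandas 2.3.3 and numpy 2.4.6 were used, and window counts, matching and motif search were tested on simulated data.

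Members, lists and motifs were chosen with earlier results of these data known. Named genes were all members, the other genes of the complex, the Hairy-related and Bearded lists, up to 6 strongest of the Notch pathway and proneural lists, and the 5 most like E(spl)m7-HLH (none within 50 kb of the complex). Of 58 list symbols 3 were matched through synonyms (E(spl)m1 as Kaz-m1, h as hry, nct as Nct). Another 2, Dl of the Notch pathway list and Side of the Hairy-related list, were not matched to a gene of the annotation and were not used here. The alternatives were other distances, peak sets, backgrounds, scales, match distances and each replicate left out, and for the median signal a distance of 1 kb was added after the data were examined.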

Additional observations from a re-analysis of the deposited data

How the results depend on the processing

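In the IDR list 4 members had a summit within 2 kb. For a replicate left out, the top peaks of the other replicate were used in place of the IDR list. This is the comparison already given above, with 4 members and 14.9% of all genes without replicate 4 and likewise without replicate 6. With the IDR list the count stayed at 4 for peaks above the median rank of that list, where 8.31% of all genes had one. It was 3 within 500 bp (11.6% of all genes), within 1 kb (12.8%) or within 500 bp of the gene's own start site (8.84%), where the summit near E(spl)m8-HLH drops out, and 6 within 5 kb (22.3%). It was 0 when the summit had to be inside the gene, where 4.62% of all genes had one, and 7 with pooled peaks of q under 0.05, where 40.1% had one. The number of separate IDR summits at members was 3 within 500 bp, 7 within 5 kb and 5 with called intervals counted once. The median relative signal of the 5 summits, 1.95, ran from 1.53 to 2.30 when a replicate was left out. It was 11.3 when divided by the median of all peaks of a list and 2.58 by that of the strongest arm peaks, as those divisors are smaller. Density was 6.12 pooled summits per 10 kb, 5.78 with 5 kb added on each side, 4.78 to 6.31 with a replicate left out, and 1.34 for the IDR list, which holds fewer peaks; the median of the members' strongest pooled signal was 217.3 within 2 kb and 95.47 within 1 kb. The share of arm tiles with fewer summits ran from 95.4% to 99.5%. No paired analysis was possible because the series holds a single group. The unknown depth and the 2 replicates limit what can be said of weak summits, which often had no match in the other replicate.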
